A study of Saccharomyces cerevisiae with 44 samples.

Results

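The histone genes of the budding yeast Saccharomyces cerevisiae were followed through the metabolic cycle of a culture grown fast and of a culture grown slowly. Members were listed by systematic name, and earlier results of these data were known when they were chosen. The 8 core histone genes were HTA1, HTA2, HTB1, HTB2, HHT1, HHT2, HHF1 and HHF2. With the linker histone gene HHO1 and the variant gene HTZ1 they made 10 of 6692 yeast genes in the table. All 10 had a mean of at least 1 RPKM (reads per kilobase of gene, scaled to library size) and were among the 5820 genes tested. Cells of strain CEN.PK122 grew in fermentors on minimal medium with 1% glucose, and no genetic change was named for either condition. The fast cycling culture was diluted at 0.12 to 0.13 per hour and sampled every 13 min, and the slow cycling culture was diluted at 0.045 to 0.05 per hour and sampled every 36 min. Each course covered 2 cycles, which gave 20 fast and 24 slow libraries. No replicate cultures are named, each condition counts as 1 culture, and every p-value measures how far its time points spread.

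Histones package DNA into nucleosomes, each made of H2A, H2B, H3 and H4. Yeast carries a pair of genes for each core histone, arranged as divergent neighbours: an H2A gene beside an H2B gene, and an H3 gene beside an H4 gene. Their transcription is known to be held to late G1 and S phase, when new chromatin is built. Known regulators of genes in this family include the activators Spt10 and Spt21, the cell cycle factors SBF and MBF, and the HIR repressor complex. In the yeast metabolic cycle of continuous cultures, cells take up oxygen in bursts, and DNA replication is known to be gated to a part of that cycle.

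The 2 copies of each histone are close relatives, which decides how well short reads tell them apart. Over the coding sequence HTA1 and HTA2 were 93.7% identical, HTB1 and HTB2 87.9%, HHT1 and HHT2 93.2%, and HHF1 and HHF2 97.4%. The stretches below, from the RefSeq yeast assembly (sacCer3), show 60 coding bases of the H2A pair and of the H4 pair, written along the coding strand with capitals at each base that differs between copies. They are shown because the H2A copies were the most unequal in level and the H4 copies the most alike in sequence.
HTA1, chrIV:915866-915925, plus strand: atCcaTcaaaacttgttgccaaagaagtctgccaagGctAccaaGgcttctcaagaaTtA
HTA2, chrII:235397-235456, minus strand: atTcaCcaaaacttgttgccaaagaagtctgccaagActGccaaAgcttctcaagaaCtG
HHF1, chrII:255463-255522, minus strand: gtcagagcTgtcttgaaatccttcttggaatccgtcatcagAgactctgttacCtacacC
HHF2, chrXIV:576889-576948, plus strand: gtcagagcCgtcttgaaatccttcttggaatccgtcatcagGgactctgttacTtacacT
The H2A stretch held 7 differences and the H4 stretch 4. The differences left the H3 and H4 proteins the same, with 0 codons for another amino acid in either pair, whereas 2 codons of the H2A pair and 4 of the H2B pair did code for another. Of all 50-base windows of a gene, 95.4% were unique in the genome for each H2A copy, 100% for each H2B copy, 87.8% for each H3 copy and 78.7% for each H4 copy. The sources used here do not give how the authors treated reads that match both copies, and the split is thus least certain for H4.

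Fast libraries held 7.60 to 19.7 M reads, and slow libraries 6.45 to 13.1 M. Added control RNAs took 0.433 to 1.60% of gene reads in fast and 0.679 to 1.27% in slow. At slow time points 12 and 24, the last sample of each cycle, they took 0.731% and 0.679%, the lowest shares of that course. The lowest fast shares were 0.557%, 0.433% and 0.462%, at time points 12, 13 and 16. HTA2, the least abundant core gene, was backed by 137 to 2192 reads per fast library and 64 to 2043 per slow library, and no member's row overlapped another gene's row.

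Histone mRNA rose and fell with the metabolic cycle. In the fast culture all 10 histone genes cycled by the exact JTK rank test with Benjamini-Hochberg adjustment over all tested genes (adjusted p from 1.61e-06 for HTB2 to 0.000169 for HHT1), where 70.1% of all genes did. In the slow culture 6 of the 10 passed: HTA2, HTB2, HHT1, HHF2, HHO1 and HTZ1, with adjusted p from 1.37e-08 for HTB2 to 0.0145 for HHO1, against 48% of all genes. HTA1, HTB1, HHT2 and HHF1 did not pass this test in slow (adjusted p 1, 0.591, 0.102 and 1). The rank test compares each course with a smooth wave. A limma F test over the points of the cycle, which assumes no shape and was chosen after the courses were seen, called all 10 in each condition, beside 83.8% of all genes in fast and 85.1% in slow. Harmonic regression called all 10 in fast, beside 81.8% of all genes, and 7 in slow, beside 56.9%, HHT2 being the gene it added. The 10 genes together took 0.122 to 0.576% of gene reads in fast (median 0.253%) and 0.140 to 0.626% in slow (median 0.159%). In such bulk samples, fewer cells making histone mRNA and less histone mRNA per cell cannot be told apart.

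**Figure D1:**
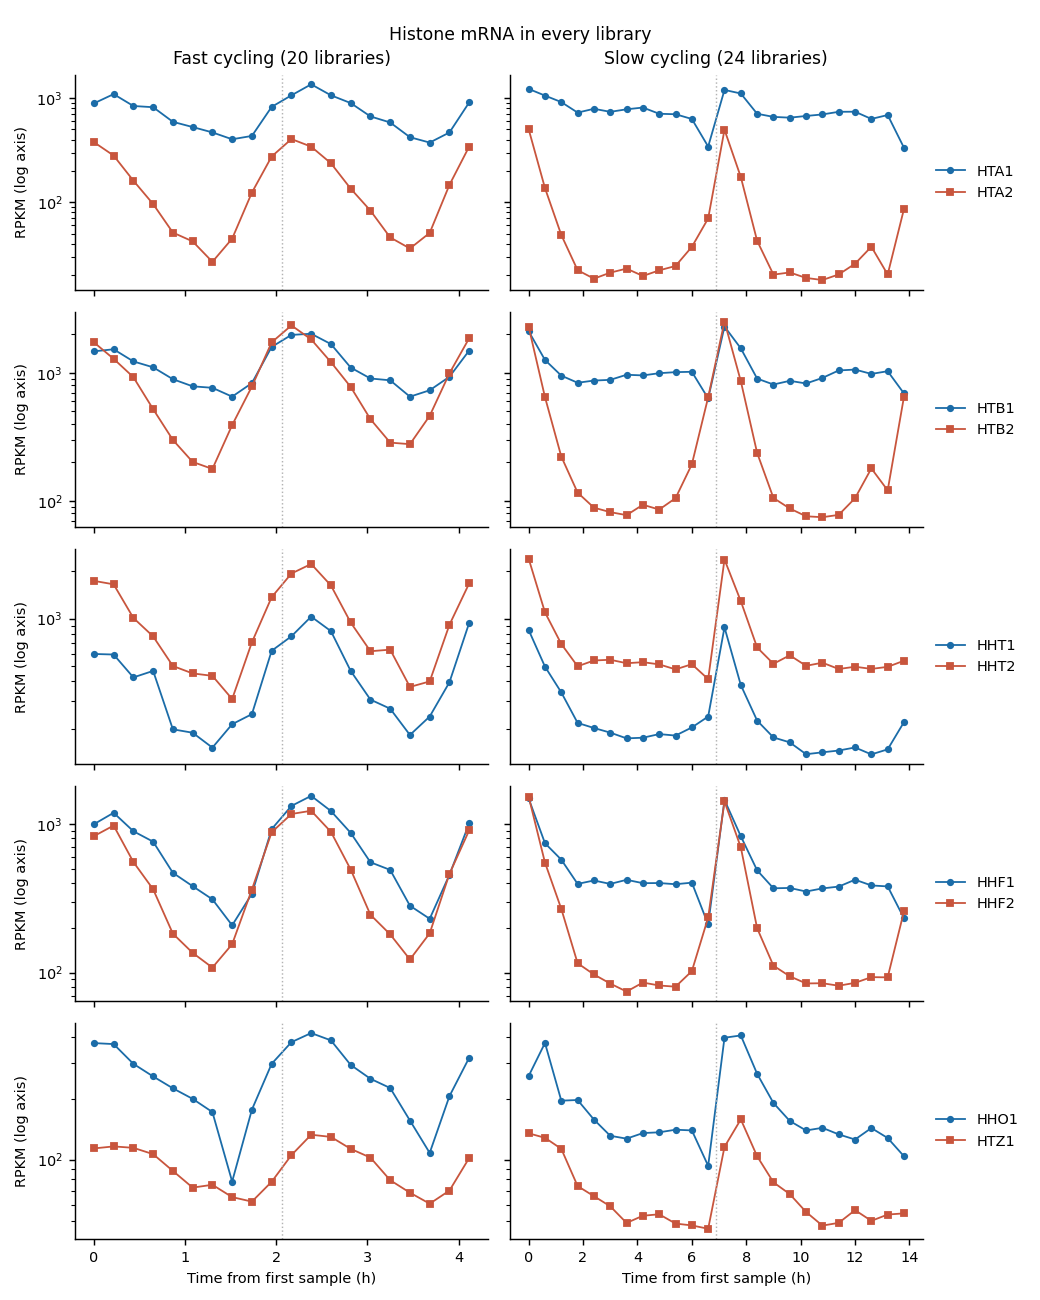
RPKM (log axis) of each histone gene against time from the first sample (h), 1 point per library, with fast cycling on the left and slow cycling on the right, and the dotted line parts the 2 cycles. In slow the core genes are highest at time points 1 and 13, with HTA1 declining more gradually and HHO1 highest at time points 2 and 14, and HTA2, HTB2 and HHF2 drop furthest between these samples.

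For H2A, HTA1 (YDR225W) stayed high through both courses, and HTA2 (YBL003C) was lower and, in slow, high at the burst and low between bursts. In fast, HTA1 ranged from 374 RPKM (time point 18) through a median of 743 to 1357 (time point 12), and HTA2 from 26.8 (time point 7) through 129.6 to 405 (time point 11). In slow, HTA1 ranged from 334 (time point 24) through 717 to 1226 (time point 1). HTA2 in slow ranged from 17.9 (time point 19) through 23.8 to 503 (time point 1). The highest HTA2 values lay at the first sample of each slow cycle, 503 and 497 RPKM, and every other slow library was at or below 175. HTA1 exceeded HTA2 in all 20 fast and all 24 slow libraries. The ratio of HTA1 to HTA2 ran from 2.35 to 17.5 in fast (median 5.92) and from 2.41 to 42.7 in slow (median 29.7). Its mean log2 value was 2.53 ± 0.89 in fast (SD, n = 20) and 4.13 ± 1.32 in slow (SD, n = 24), a two-sided sign-flip permutation test giving an adjusted p of 1.33e-05 in each. Here and below, such p-values were adjusted over 8 tests, 4 pairs in 2 conditions, and 1e-05 is the smallest raw p that the 100000 resamples can give. HTA1 made up 71.3 ± 1.59% of the pair at cycle point 1 and 79.7 ± 0.22% at point 2 in fast, where the H2A sum was highest at point 2, and 70.8 ± 0.17% at point 1 in slow, where the sum was highest (SD, n = 2 cycles).

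For H2B, the copies were alike at the burst and far apart between bursts. HTB1 (YDR224C) ranged from 650 RPKM through a median of 1014 to 2016 in fast, and from 630 through 959 to 2294 in slow. HTB2 (YBL002W) ranged from 177 through 778 to 2341 in fast, with its highest values at time points 11 and 20, and from 74.5 through 111 to 2512 in slow. The ranges of the copies overlapped at the top and parted at the bottom, where HTB2 reached far lower values than HTB1 in each course. HTB1 was above HTB2 in 15 of 20 fast libraries and 21 of 24 slow libraries. The ratio of HTB1 to HTB2 had a mean log2 value of 0.64 ± 0.75 in fast (SD, n = 20, adjusted sign-flip permutation p = 0.00077) and 2.38 ± 1.35 in slow (SD, n = 24, adjusted p = 1.33e-05). It ran from 0.800 through a median of 1.40 to 4.30 in fast and from 0.913 through 8.11 to 13.4 in slow.

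For H4, the pattern was that of H2B at lower levels. HHF1 (YBR009C) ranged from 208 RPKM through a median of 656 to 1544 in fast, and from 211 through 397 to 1483 in slow. HHF2 (YNL030W) ranged from 108 through 412 to 1226 in fast, and from 74.5 through 95.8 to 1525 in slow. Both copies thus reached like heights, and HHF2 went lower. HHF1 was above HHF2 in 18 of 20 fast and 21 of 24 slow libraries. The mean log2 ratio was 0.66 ± 0.55 in fast (SD, n = 20, adjusted sign-flip permutation p = 3.43e-05) and 1.52 ± 0.92 in slow (SD, n = 24, adjusted p = 1.33e-05). In slow, HHF1 made up 49.9 ± 0.91% of the pair at the burst and 83.1 ± 2.59% at cycle point 7 (SD, n = 2 cycles).

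For H3, the proportion of the copies varied less than in the other pairs, and the second copy led. HHT1 (YBR010W) ranged from 152 RPKM through a median of 409 to 1029 in fast, and from 137 through 187 to 879.6 in slow. HHT2 (YNL031C) ranged from 309 through 842 to 2221 in fast, and from 413 through 523 to 2399 in slow. HHT2 was above HHT1 in all 44 libraries, although the ranges of the copies overlapped because both moved together. The ratio of HHT1 to HHT2 ran from 0.344 through 0.444 to 0.692 in fast and from 0.270 through 0.344 to 0.579 in slow. Its mean log2 value was -1.14 ± 0.28 in fast (SD, n = 20) and -1.50 ± 0.28 in slow (SD, n = 24), with an adjusted sign-flip permutation p of 1.33e-05 in each.

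**Figure D2:**
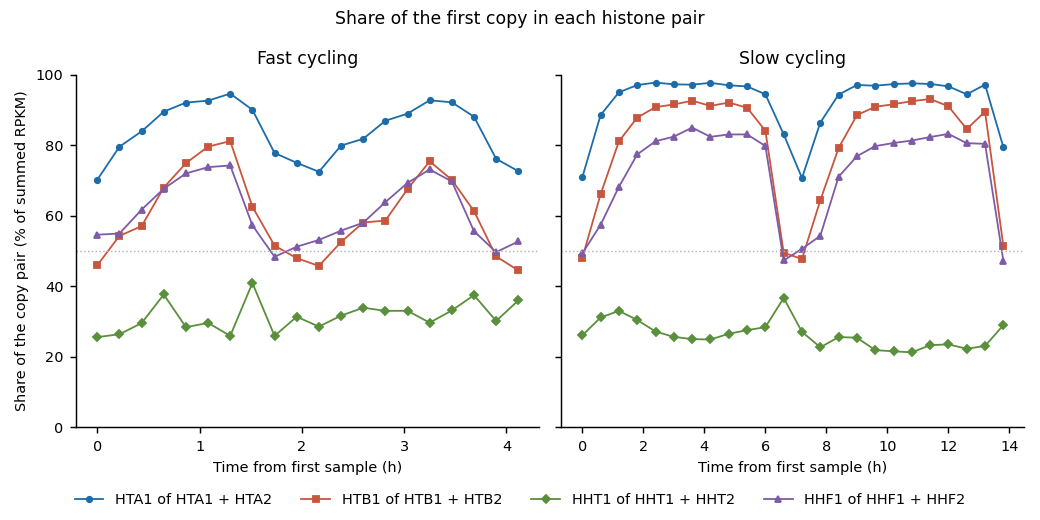
Share of the first copy in the summed RPKM of each pair (%) against time from the first sample (h), 1 point per library; the dotted line marks equal copies (50%). HTA1, HTB1 and HHF1 take their smallest shares around the burst and their largest between bursts, while HHT1 stays between 21.3 and 40.9%.

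Tested directly, the balance of the copies cycled for H2A, H2B and H4. The exact JTK rank test on the log2 ratio, adjusted over the 8 tests, gave adjusted p of 1.18e-06 for H2A, 1.63e-06 for H2B and 8.72e-05 for H4 in fast, and of 4.49e-06, 6.21e-10 and 4.49e-06 in slow. For H3 the ratio did not pass (adjusted p 1 in fast and 0.158 in slow). The cosine range of the log2 ratio, fitted peak minus trough, was 2.32 ± 0.19 for H2A, 1.92 ± 0.19 for H2B, 1.39 ± 0.14 for H4 and 0.15 ± 0.19 for H3 in fast (SE). In slow it was 3.06 ± 0.43, 3.31 ± 0.38, 2.18 ± 0.28 and 0.40 ± 0.14 (SE). The balance also differed between conditions in all 4 pairs by a two-sided permutation test of library labels. The fast minus slow difference of the mean log2 ratio was -1.60 ± 0.33 for HTA1 to HTA2 (SE, adjusted p = 0.00012), -1.74 ± 0.32 for HTB1 to HTB2 (4e-05) and -0.86 ± 0.22 for HHF1 to HHF2 (0.00095). For HHT1 to HHT2 it was 0.37 ± 0.09 (0.000147), the opposite direction, and 0.10 in the first cycle alone (adjusted p = 0.425). By this mean over libraries, HTA1, HTB1 and HHF1 were a larger part of their pairs in slow, and HHT1 a smaller part. This did not hold for every gene at cycle point 1. There HTA1 made up 70.8 ± 0.17% in slow and 71.3 ± 1.59% in fast, and HTB1 47.9 ± 0.20% and 45.8 ± 0.15%. HHF1 made up 49.9 ± 0.91% and 53.9 ± 1.05%, and HHT1 26.6 ± 0.70% and 27.1 ± 2.10% (SD, n = 2 cycles).

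Fitted phases of the H2A, H2B and H4 copies lay minutes apart in the fast culture. The fitted cosine of HTA2 peaked 5.63 ± 1.23 min after the first sample and that of HTA1 at 17.1 ± 1.83 min (SE), a lag of 11.5 ± 2.21 min. The lag of HTB1 behind HTB2 was 7.51 ± 2.31 min, and that of HHF1 behind HHF2 8.16 ± 2.15 min. For HHT1 against HHT2 it was 0.12 ± 2.91 min. All these lags are below the sampling interval of 13 min and come from the fitted wave, so they describe the whole course rather than the highest sample. Their SEs treat the copies as independent, although both were measured in the same libraries, and the lags themselves were not tested. By highest sample, fast core genes peaked at time points 1, 2 or 10 in the first cycle and 11 or 12 in the second. In slow, all 8 core genes had their highest samples at time points 1 and 13, so that sampling every 36 min resolved no lag, and the fitted lags had SEs of 23.6 to 49.6 min.

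The slow burst was preceded by a split between the copies. From cycle point 11 to 12, HTB2 went from 157 ± 50.9 to 647 ± 5.31 RPKM, HHF2 from 97.5 ± 6.63 to 247 ± 16.9 and HTA2 from 28.8 ± 12.1 to 78.2 ± 11.6 (SD, n = 2 cycles). Over the same step HTA1 went from 659.5 ± 40.7 to 338 ± 6.52, HTB1 from 1022 ± 7.68 to 659 ± 41.6 and HHF1 from 391 ± 16.0 to 221 ± 15.0. The copies that were lower between bursts were thus higher at point 12 than at point 11, while their partners were, in RPKM, at their lowest of the cycle. The share of control RNAs was also lowest at these samples. Scaled to the controls, HTA1 still went from 626 ± 17.4 to 481 ± 19.1, whereas HHF1 went from 373 ± 48.6 to 316 ± 40.0, about its spread. Scaled HTB1 went from 973 ± 79.7 to 941 ± 115, less than its spread, and was lowest at point 4 (697 ± 18.6). HHT1 went from 176 ± 39.5 to 230 ± 13.1 RPKM and HHT2 from 504 ± 13.8 to 477 ± 90.1. Scaled to the controls both rose, HHT1 from 169 ± 52.5 to 326 ± 0.60 and HHT2 from 480 ± 56.0 to 682 ± 168.

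The linker and variant genes were among the less abundant members and had later fitted phases than most core genes. HHO1 (YPL127C), which encodes the linker histone H1, ranged from 78.0 RPKM through a median of 254 to 420 in fast and from 93.3 through 142 to 409 in slow. HTZ1 (YOL012C), which encodes the H2A.Z variant placed at promoters outside replication, ranged from 60.7 through 95.0 to 133 in fast and from 45.7 through 55.8 to 158 in slow. Fast and slow ranges overlapped widely for each. Their fitted phases in fast were 17.2 ± 2.84 min for HHO1 and 22.1 ± 1.66 min for HTZ1 (SE), the latter after every core gene. In slow HHO1 was highest in RPKM at time points 2 and 14, 1 sample after the core genes. The second cycle was close, with 399 RPKM at time point 13 and 409 at time point 14. Scaled to the control RNAs these were 443 and 394, so that HHO1 was highest with the core genes there. HTZ1 was highest at time point 1, with the core genes, in the first cycle and at time point 14 in the second. Their fitted phases in slow were 51.9 ± 15.4 and 52.4 ± 10.4 min.

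Ordered by mean RPKM in fast, the genes ran HTB1, HHT2, HTB2, HTA1, HHF1, HHF2, HHT1, HHO1, HTA2 and HTZ1. The slow order was HTB1, HTA1, HHT2, HHF1, HTB2, HHF2, HHT1, HHO1, HTA2 and HTZ1. Means ran from 1158 ± 434 for HTB1 to 92.8 ± 23.2 for HTZ1 in fast (SD, n = 20) and from 1059 ± 396 to 73.4 ± 33.1 in slow (SD, n = 24). Every neighbouring pair in either order differed by less than the larger of its SDs, which hold the cycle itself. Within libraries some neighbours were still separate: HTB1 was above HTA1, and HHT2 above HHF1, in all 24 slow libraries. Others went against the order by mean in most libraries: in slow, HHF2 was above HHT1 in 5 of 24 libraries (medians 95.8 and 187), and HTA2 above HTZ1 in 6 of 24 (medians 23.8 and 55.8).

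Between cultures, HTB2, HTA2 and HHF2 differed most in level. By limma on log2(RPKM + 1), with Benjamini-Hochberg adjustment over all genes, an adjusted p under 0.05 and at least a 2-fold difference, 3 of the 10 were higher in fast, beside 1.87% of all genes, and 0 were lower, beside 2.35% (0 also at an unadjusted p under 0.05). HTB2 was 1.85 ± 0.41 higher on the log2 scale (SE, adjusted p = 0.000419), HTA2 1.51 ± 0.40 (0.00256) and HHF2 1.30 ± 0.37 (0.00513). With no minimum fold, HHT1 at 0.78 ± 0.24, HHO1 at 0.50 ± 0.18 and HTZ1 at 0.40 ± 0.14 also passed limma's test, which made 6 members higher against 17.9% of all genes and 0 lower against 20.4%. The HTA1 and HTB1 levels differed by less than their SE. Values for the rest were 0.43 ± 0.23 for HHF1, 0.42 ± 0.24 for HHT2, 0.11 ± 0.14 for HTB1 and -0.09 ± 0.15 for HTA1 (limma adjusted p 0.134 to 0.666). The median difference over the members was 0.47, against 0.00 over all genes tested; scaled to the control RNAs these were 0.67 and 0.20. In the first cycle alone HTB2 was the 1 member past the threshold, and in the second alone HHT1 passed it and HHF2 did not (limma adjusted p = 0.0556). The shares of all genes in single cycles were not counted.

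These levels average unlike shapes. At the slow burst HTA2 reached 500.1 ± 3.90 RPKM, HTB2 2397 ± 162 and HHF2 1470 ± 76.7 (SD, n = 2 cycles), against 391 ± 18.8, 2034 ± 434 and 1100 ± 177 at the fast peak. Their lowest points were 19.9 ± 1.92, 75.9 ± 2.00 and 79.6 ± 7.26 in slow and 31.4 ± 6.51, 227 ± 70.3 and 115 ± 10.2 in fast. The slow troughs were 3.97, 3.17 and 5.41% of the peak, and those of HTA1, HTB1, HHT1, HHT2 and HHF1 were 27.9, 30.0, 18.3, 20.0 and 15.1%. Scaled to the control RNAs, the 3 peaks were 485 ± 96.3, 2342 ± 637 and 1419 ± 220 in slow and 461 ± 222, 2342 ± 1345 and 1636 ± 821 in fast, which differ by less than their spread. As a share of the cycle the burst was brief in slow: 1 of the 12 cycle points was at or above the middle height for 7 of the 8 core genes (4 points for HTA1), while in fast 3 to 5 of 10 points were. With samples 36 and 13 min apart, this does not show a shorter burst in minutes.

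**Figure D3:**
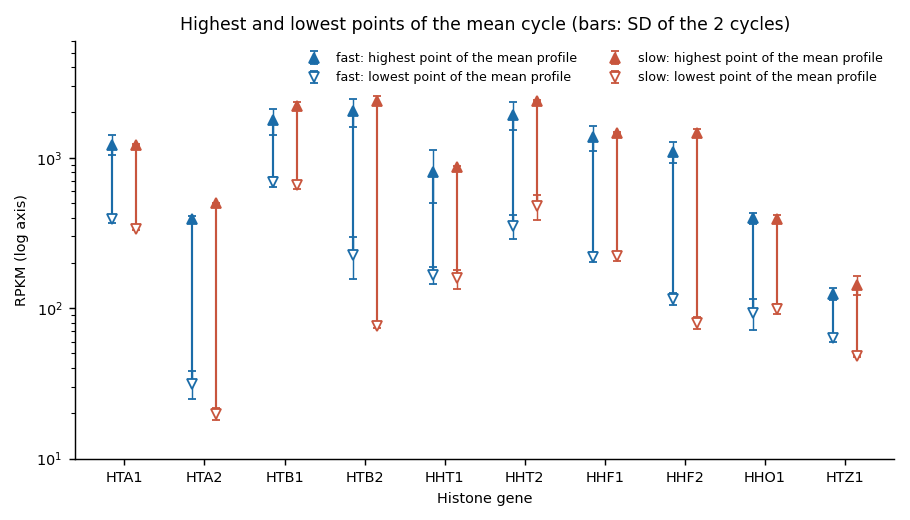
Highest (filled) and lowest (open) point of the mean cycle of each histone gene in RPKM (log axis), fast and slow side by side; bars are the SD of the 2 cycles. On this scale slow peaks lie near or above the fast peaks, which is not so for every gene after scaling to the control RNAs, and the troughs of HTA2, HTB2 and HHF2 are lower in slow than in fast.

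The fitted swing was larger in fast for 4 genes. By a z test on the cosine ranges with Benjamini-Hochberg adjustment over all genes, the fast minus slow difference was 1.46 ± 0.41 for HHF1 (SE, adjusted p = 0.00297), 1.16 ± 0.39 for HHT2 (0.0131), 1.09 ± 0.29 for HTA1 (0.00158) and 0.89 ± 0.27 for HTB1 (0.0061). That is 4 of 10, beside 32.6% of all genes, and 0 of 10 were larger in slow, beside 2.87% (0 also at an unadjusted p under 0.05). The share is near the background, and the direction depends on the measure of range and on the scaling. The distance from trough to peak of the mean profile was larger in slow for HTA1 (1.84 against 1.65 on the log2 scale), HTB1 (1.74 against 1.35) and HHF1 (2.72 against 2.63), and 2.33 against 2.44 for HHT2. Scaled to the control RNAs the direction turned for HTA1, HTB1 and HHF1: HTA1 went from 481 ± 19.1 to 1174 ± 224 in slow and from 365 ± 61.1 to 1818 ± 899 in fast, HTB1 from 697 ± 18.6 to 2149 ± 568 and from 628 ± 198 to 2648 ± 1409.9, and HHF1 from 316 ± 40.0 to 1420 ± 271 and from 204 ± 9.14 to 2039 ± 1065 (SD, n = 2 cycles). These scaled fast peaks lay at cycle point 2, where the cycles differed: HTA1 was 1183 at time point 2 and 2454 at time point 12. Control RNAs took 0.919% and 0.557% of gene reads in these libraries. A cosine took 88.3% of the variance of HTA1 in fast and 8.82% in slow.

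Each core gene shares its promoter region with the gene of its nucleosome partner, and neighbours differed in how closely they moved. HTA1 to HTB1 ran from 0.503 to 0.817 in fast and from 0.484 to 0.965 in slow. HTA2 to HTB2 ran from 0.110 to 0.219 and from 0.109 to 0.299. These H2A to H2B ratios stayed below 1 in every library. HHT1 to HHF1 ran from 0.423 to 1.04 and from 0.357 to 1.13. HHT2 to HHF2 ran from 1.56 to 4.01 in fast and from 1.57 to 6.99 in slow, the widest spread, with an SD of the log2 ratio of 0.75 (n = 24) against 0.26 for HTA1 to HTB1. The H3 and H4 genes that share a promoter region thus kept less of a fixed ratio than HHT1 and HHT2, which do not share one (SD 0.28 in slow).

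The promoter regions are printed because the core genes that swing most and least lie on different ones. Each line is the plus strand of RefSeq's sacCer3 assembly, cut 25 bases outside the outermost match. Capitals mark matches on either strand to the histone upstream activating sequence bound by Spt10 (GTTCC or ATTCC, then 6 bases of any kind, then TTCNC), the SBF motif (CACGAAA or CGCGAAA) and the MBF motif (ACGCGT).
HTB1-HTA1, chrIV:914942-915177: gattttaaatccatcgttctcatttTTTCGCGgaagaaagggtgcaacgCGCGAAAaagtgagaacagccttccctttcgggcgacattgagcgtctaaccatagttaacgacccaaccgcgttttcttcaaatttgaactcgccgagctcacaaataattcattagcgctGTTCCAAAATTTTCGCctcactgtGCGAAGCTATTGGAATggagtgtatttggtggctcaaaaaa
HTA2-HTB2, chrII:236083-236159: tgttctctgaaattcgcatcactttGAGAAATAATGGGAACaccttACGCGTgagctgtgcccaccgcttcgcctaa
HHF1-HHT1, chrII:255919-255984: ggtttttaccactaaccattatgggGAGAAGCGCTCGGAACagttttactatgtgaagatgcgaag
HHT2-HHF2, chrXIV:576321-576497: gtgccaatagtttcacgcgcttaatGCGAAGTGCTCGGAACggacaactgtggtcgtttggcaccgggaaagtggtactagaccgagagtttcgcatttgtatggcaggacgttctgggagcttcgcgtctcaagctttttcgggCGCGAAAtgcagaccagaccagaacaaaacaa
The histone motif matched 2 times between HTB1 and HTA1 and 1 time in each other region. The MBF motif, which reads the same on both strands, lay between HTA2 and HTB2, and the SBF motif matched 2 times between HTB1 and HTA1 and 1 time between HHT2 and HHF2. Within 700 bases upstream of the start codon, which can reach into a neighbouring gene, the histone motif was found for 87 of 5999 genes (1.45%), all 8 core histone genes among them. The SBF motif was found for 15.7% of genes, HTA1, HTB1, HHT2, HHF2, HHO1 and HTZ1 among them, and the MBF motif for 6.98%, HTA2 and HTB2 among them. A match is a run of letters, and its part in the levels was not tested.

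Summed over copies, the 4 core histones spanned a narrower set of swings than single core genes. The H4 sum moved 6.35-fold in fast, from 388 ± 35.9 to 2467 ± 429 RPKM, and 6.42-fold in slow, from 457 ± 30.9 to 2936 ± 100.2 (SD, n = 2 cycles). H3 moved 4.84-fold in fast and 5.10-fold in slow, H2B 4.02-fold and 4.94-fold, and H2A 3.52-fold and 4.11-fold. Single core genes in slow ran from 3.34-fold for HTB1 to 31.6-fold for HTB2. A sum cannot swing more than the wider of its copies, so its upper end is bounded by the summing itself.

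Genes that control, carry or use histones were counted from lists chosen for their known roles. Over all genes tested, 70.1% cycled in fast and 48% in slow, and the median cosine range was 0.84 and 0.54 on the log2 scale, beside 2.24 and 1.22 over the 10 histone genes. Of 12 histone gene regulators, 9 cycled in fast and 5 in slow by the same rank test, with median ranges of 0.67 and 0.44. Among those with the widest swings in fast, SPT21, a co-activator of histone genes, went from 6.67 ± 0.70 to 27.6 ± 1.87 RPKM, ASF1, an H3-H4 chaperone, from 39.0 ± 9.44 to 133 ± 17.4, and RTT106, a chaperone that acts at histone promoters, from 33.3 ± 0.34 to 79.4 ± 7.01 (SD, n = 2 cycles). All 3 were highest at fast cycle point 10, while the core histone genes were highest at point 1 or 2. Among the 5 that cycled in slow, the widest were SPT21, HIR1 of the HIR repressor complex and SWI6, a subunit of both SBF and MBF. SPT21 peaked at slow point 12 (31.7 ± 3.81 RPKM), HIR1 at point 12 (28.5 ± 1.37) and SWI6 at point 2 (61.8 ± 3.80). By limma, 4 of the 12 were higher in fast with no minimum fold, each by less than 2-fold, beside 17.9% of all genes.

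Chaperones and acetyltransferases that bring histones to chromatin had a mean phase of 0.758 of a cycle in fast, beside 0.809 for the regulators. Of 14, 10 cycled in fast and 5 in slow, beside 70.1% and 48% of all genes, with median cosine ranges of 0.68 and 0.42. KAP123, a nuclear import receptor for H3 and H4, went from 13.3 ± 3.00 to 145 ± 23.9 RPKM with its peak at fast cycle point 8 (SD, n = 2 cycles). RLF2 and CAC2, subunits of the chromatin assembly factor CAF-1, peaked at points 9 (66.2 ± 0.55) and 10 (54.9 ± 2.13). In slow, KAP123 (145 ± 31.9) and MSI1 (53.8 ± 5.52), also of CAF-1, peaked at point 12, and RTT109, which acetylates new H3, at point 1 (26.2 ± 1.29). Of 10 tested genes of H2A.Z exchange, 8 cycled in fast and 2 in slow, beside the same 70.1% and 48%. Their median ranges were 0.46 and 0.31. The H2A.Z chaperone CHZ1 peaked in fast at point 4 (459 ± 34.2) and the SWR1 complex subunits SWC3 and SWC5 at points 8 and 7, beside point 2 for HTZ1. VPS72, ARP6 and YAF9 were also highest at point 7, and VPS71 at point 9. Nearer to HTZ1's peak were SWR1 and SWC4, highest at point 1, and BDF1 at point 3. Of these 3, SWR1 and BDF1 did not pass the rank test in fast (adjusted p 0.0590 and 0.0678). In slow, SWC5 peaked at point 11 (62.8 ± 4.61) and the catalytic subunit SWR1 at point 2 (29.5 ± 1.82).

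On average, DNA replication and S phase genes had earlier fitted phases than the core histone genes. Of 22, 21 cycled in fast and 13 in slow, beside 70.1% and 48% of all genes, with median cosine ranges of 2.06 and 1.01. Their mean phase was 0.853 of a cycle in fast and 0.963 in slow, beside 0.072 and 0.025 for the core histone genes that cycled, as shares counted from the start of each course. The cohesin gene MCD1 (150 ± 11.4 RPKM at its peak), RNR1 of ribonucleotide reductase (192 ± 13.0) and POL30, the sliding clamp of the replication fork (207 ± 6.32), peaked at fast cycle points 10, 9 and 10 (SD, n = 2 cycles). In slow MCD1 (86.6 ± 17.0), RNR1 (196 ± 23.2) and the S phase cyclin gene CLB6 (21.0 ± 5.18) peaked at point 12, the point before the histone burst. CDC21, RFA1, RFA2, RFA3 and SMC3 of this list were instead highest at slow point 1, with the core histone genes. The slow fitted phase of MCD1, 0.0080 ± 0.024 of a cycle, was not before those of HTB2 (0.0021 ± 0.020) and HTA2 (0.0065 ± 0.027) (SE). By limma at the 2-fold threshold, 2 of the 22 were higher in fast, beside 1.87% of all genes. They were MCD1 at 1.31 ± 0.39 and RNR1 at 1.19 ± 0.37 on the log2 scale (SE, limma adjusted p 0.00623 and 0.00985).

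**Figure D4:**
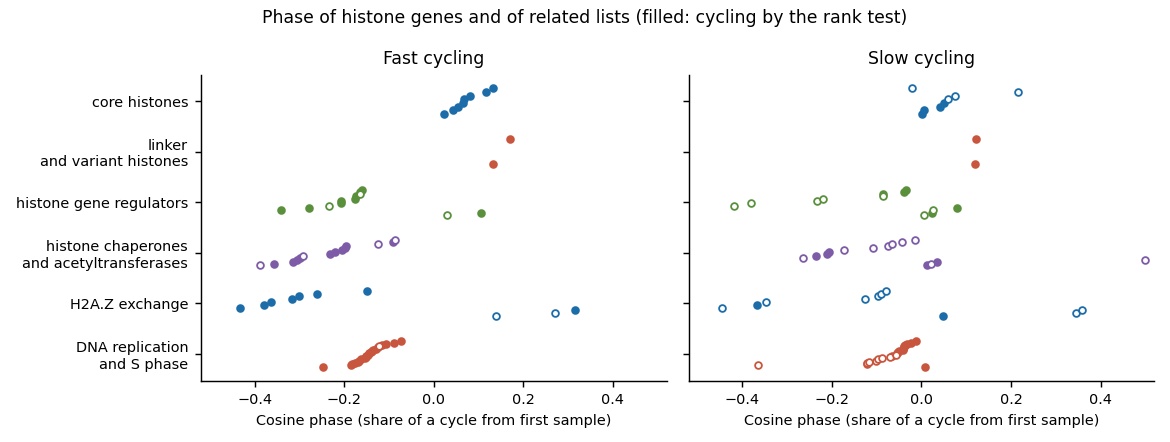
Cosine phase of each gene (as a share of the cycle, counted from the start of sampling, values above 0.5 drawn as negative) by list, for fast and slow cycling; filled points are genes that cycle by the rank test. Cycling core histone genes lie just after the first sample, and nearly all replication and S phase genes lie before it.

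The genes whose courses were most like the mean core histone course were picked by Pearson correlation of log2(RPKM + 1) over the libraries of a condition. In fast (20 libraries) they were TUB1, alpha-tubulin (r = 0.958), COA3 (0.957), COX14 (0.954), the mitochondrial chaperonin gene HSP60 (0.952), MRPS12 (0.952), COX23 (0.950), PAM17 (0.948) and MRPL23 (0.945). In slow (24 libraries) they were AIM36 (0.969), MRPL50 (0.966), MRPL13 (0.961), MRPL44 (0.961), MHR1 (0.960), ATP11 (0.960), ACP1 (0.954) and CYT2 (0.954). The members' own correlations with that mean, of which each core gene is a part, ran from 0.788 for HTZ1 to 0.987 for HHT2 in fast and from 0.708 for HTA1 to 0.987 for HHT2 in slow. Some of these genes therefore followed the histone course more closely than HTA1 did in slow. HSP60 moved between 330.5 ± 85.6 and 1689.5 ± 74.1 RPKM in fast, and AIM36 between 40.0 ± 0.46 and 233 ± 59.6 in slow (SD, n = 2 cycles). These correlations share libraries and depth and are given as a description.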

How the data were processed

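Poly(A) RNA was sequenced from 20 fast and 24 slow libraries. The authors deposited 1 table of RPKM values. Per the file headers, HOMER counted sense-strand reads per gene body, using the SGD annotation (sacCer3) and 92 control RNAs. FastQC 0.10.1 and TopHat2 2.0.10 were used, per the submitters' processing notes. Samples were randomised over 4 RNA extraction groups, per the labels' protocols, and the sources used here do not give each sample's group. Low RPKM values were whole multiples of 1 read within 0.1 in 100% of values checked, which gave the depth.

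Genes whose mean over the 44 libraries reached 1 RPKM were tested. Cycling calls came from the exact JTK rank test, written anew (periods of 9, 10 and 11 intervals in fast, 11, 12 and 13 in slow; Bonferroni over periods and phases, Benjamini-Hochberg over genes). Ranges and phases came from a cosine on log2(RPKM + 1) at 10 and 12 intervals, so ranges understate low genes. Level differences came from limma 3.58.1 in R 4.3.3, and copy ratios were compared by permutation tests of 100000 resamples in Python 3.11.15 with numpy 2.4.6, scipy 1.17.1 and pandas 2.3.3. Successive samples are not independent, which these tests do not model. Alternatives were other scalings, pseudocounts, filters, tests and single cycles. The tests were tried on simulated data. Named were all members, the 3 cycling genes of each list with the widest cosine range per condition, and the 8 genes per condition most like the mean core histone course. The members and lists were chosen with earlier results of these data known.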

Additional observations from a re-analysis of the deposited data

Results flagged for a closer look

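In 8 results the fast and slow cultures differed by a test of the difference itself. The fitted cosine range (log2) was larger in fast by 1.09 for HTA1, 0.89 for HTB1, 1.16 for HHT2 and 1.46 for HHF1. The mean log2 ratio of the copies, fast minus slow, was -1.60 for HTA1 to HTA2, -1.74 for HTB1 to HTB2, 0.37 for HHT1 to HHT2 and -0.86 for HHF1 to HHF2. With 1 culture per condition, dilution rate, culture, sampling interval and cycle length cannot be told apart in any of them.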

How the results depend on the processing

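In slow, 10 members in place of 6 cycled by harmonic regression without time points 12 and 24. The share of all genes under that setting was not counted. The test without a template, chosen after seeing the data, also called 10, beside 85.1% of all genes. The count past the level threshold fell from 3 to 1 in the first cycle alone, with HTA2 at 1.34 (limma adjusted p = 0.0986) and HHF2 at 1.12 (0.144), and it was 3 with time point number as a replicate block, a number that names only the order of sampling. With control RNA scaling, 2 in place of 4 members had a larger cosine range in fast, also chosen after seeing the data. The share of all genes was not counted for the first cycle alone, the replicate block or this scaling. The HHT1 to HHT2 difference was 0.10 in the first cycle (adjusted p = 0.425). The level difference of HTA1 changed sign to 0.11 with control scaling and 0.025 in the second cycle alone. With profile ranges the range difference changed sign for HTA1 (-0.19), HTA2 (-0.98), HTB1 (-0.39), HHT1 (-0.23), HHF1 (-0.10) and HHF2 (-0.95). The causes were not tested. Of 100 level values for single genes under the alternatives, 94 kept direction and side of the threshold, as did 177 of 190 cycling values, whereas 36 of 60 cosine ranges and 9 of 20 range differences stayed the same. The copy counts rest on how reads matching both copies were assigned, and a slow burst between samples would be missed.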
